A study of Mus musculus with 4 samples.

Results

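The genes described here build the N-linked glycan, carry new proteins into the endoplasmic reticulum (ER), cut off their signal peptides and fold the glycosylated products. There were 45 such genes, chosen by function but with earlier results of these data known, so counts of them are descriptions. Of these, 44 had at least 1 probe set of their own among the 18193 genes of the array. Sec61g, a small subunit of the Sec61 channel, had none. RNA came from the tibialis anterior (TA, a mostly fast skeletal muscle of the shin) and from the heart of mice at postnatal day 9, on the C57BL/6J background. The groups were MG56-knockout TA, wild-type TA, MG56-knockout heart and wild-type heart. RefSeq lists MG56 as another name of Hhatl, which encodes a membrane protein of the sarcoplasmic reticulum of striated muscle. Each group was 1 Affymetrix array hybridised with RNA pooled from several mice, 3 in the knockout pools. The sources used here do not describe the knockout allele or state how many wild-type mice were pooled. With 1 array a group, no difference has a replicate error or a p-value, and each ratio compares pools of RNA.

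Most proteins of the secretory pathway enter the ER through the Sec61 channel while they are still being made. Signal peptidase removes the leader peptide, and oligosaccharyltransferase transfers a preformed sugar tree from the lipid dolichol to asparagine residues. Glucosidases then trim the tree so that the lectin chaperones calnexin and calreticulin can hold the protein while it folds. In striated muscle the same membrane system is specialised as the sarcoplasmic reticulum, where calreticulin and its relatives also bind calcium, and many of these genes are known targets of the unfolded protein response.

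The 4 arrays shared a scale, with trimmed means between 496.35 and 496.83 and between 49.5% and 50.7% of probe sets above the floor of 101.3, the median of all signals. The targeted gene Hhatl had a signal of 1078 in knockout and 5491 in wild-type TA, and of 880 and 2109.5 in heart. Its probe set cannot be placed against the deletion from the labels, so its residual signal does not check the allele. All 8 skeletal muscle markers were higher in wild-type TA than in wild-type heart, and all 7 heart markers were lower. The Y-linked gene Uty was 2.71-fold higher in the knockout than in the wild-type TA pool and 2.29-fold higher in heart, and Xist, expressed from the inactive X, was 1.44-fold and 1.30-fold lower. The part of these differences between pools in the results was not tested.

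In knockout TA, 13 of the 43 measured members were at least 1.5-fold higher than in wild-type TA, of which 7 reached 2-fold, whereas 0 were lower by 1.5-fold. That is 30.2% of the measured members, against 4.20% of all 11528 measured genes at least 1.5-fold higher, 4.44% lower and 0.954% at least 2-fold higher. The median log2 ratio of the measured members was 0.34, against -0.01 over all genes, with 34 members above 0 and 9 below. A gene counted as measured if either array of the pair reached the floor, and the 1 member left out, Dpm3, was below it on all 4 arrays. Among genes with a mean signal of at least 1000 over the 4 arrays 3.37% were 1.5-fold higher, against 9 of 24 members in that range. In knockout heart the members did not share this excess. There 0 of 43 were at least 1.5-fold higher and 2 were lower, against 2.67% and 4.19% of all genes, and the median was -0.09.

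**Figure D1:**
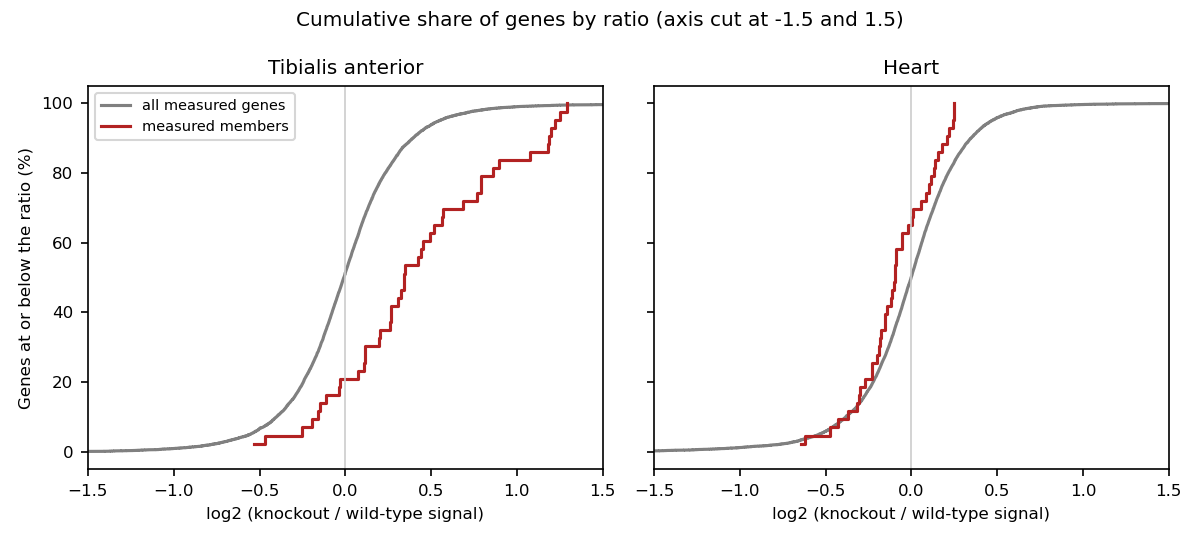
Cumulative share of genes, in percent, at or below each log2 ratio of knockout over wild-type signal, in TA (left) and heart (right), 1 array a group. The red line (43 measured members) lies to the right of the grey line (all measured genes) over most of its range in TA, where the medians are 0.34 and -0.01, and slightly to its left in heart, where the median of the members is -0.09.

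The only repeat within an array was a second probe set for the same gene, which reads the same RNA with other probes. Over all genes the median SD between the probe sets of a gene was 0.16 in TA, 0.17 in heart and 0.24 between the wild-type tissues, as log2 ratios. It covers differences between probes and not between mice. Each gene is given below on its brightest probe set, by the mean of all arrays. In TA, 23 members had several measured probe sets, and in 17 of them all pointed the same way. Of the 13 members 1.5-fold higher, 9 had several measured probe sets, and for 8 of these (Alg12, Calr, Canx, Gmppa, Sec63, Spcs2, Ssr3 and Uggt1) another probe set also passed 1.5-fold. The exception was Sec11c, whose other probe set was close to the floor, at 109.0 in knockout and 124 in wild type, and pointed the other way (-0.18). The other members whose probe sets disagreed in direction in TA were Dpm1, Pmm2, Sec62, Ssr1 and Stt3a. In heart the probe sets pointed the same way in 10 of 21 members.

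**Figure D2:**
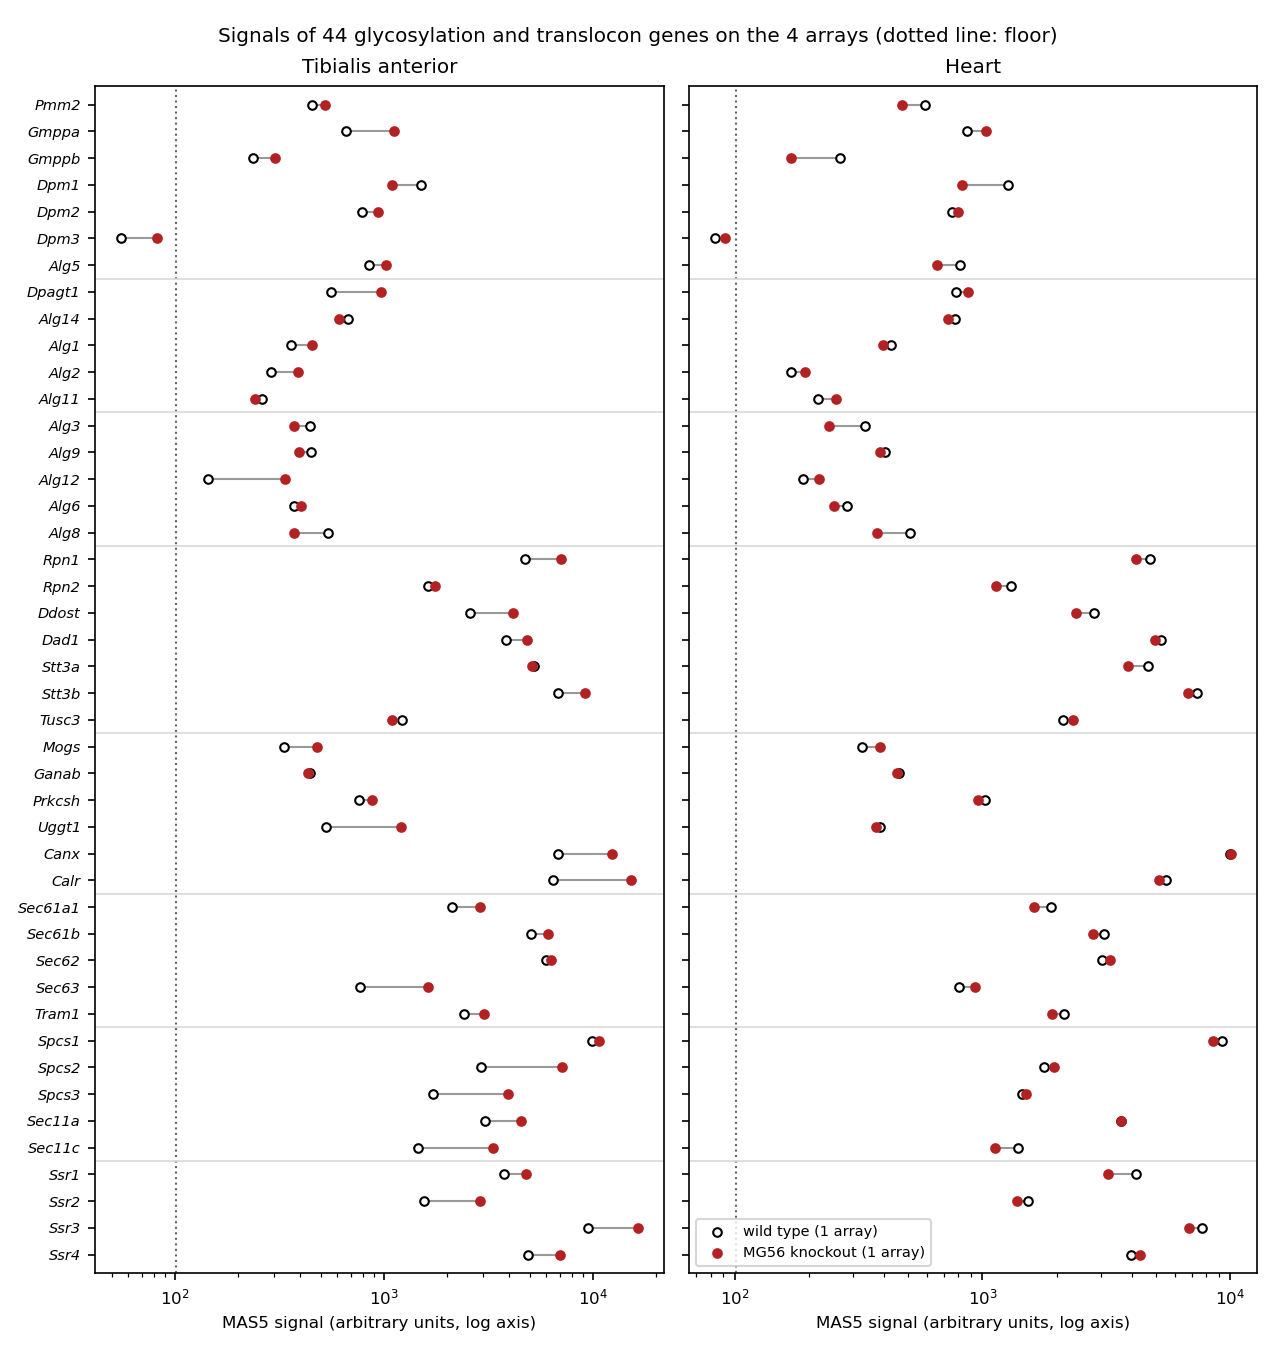
MAS5 signal (arbitrary units, log axis) of the 44 members with a probe set of their own in TA (left) and heart (right), grouped by step with grey lines between steps. Open circles are wild-type pools, red circles MG56-knockout pools, 1 array each, and the dotted line is the floor of 101.3. Long bars to the right stand out in TA for Calr, Uggt1, Sec63, Alg12, Spcs2, Spcs3 and Sec11c, whereas in heart the pairs past 1.5-fold are Gmppb and Dpm1, both lower in the knockout.

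Signal peptidase had a median of 1.18 in knockout TA, the highest of the 8 steps on the brightest probe sets, and 3 of its 5 genes were at least 2-fold higher. Spcs2, an accessory subunit that links the peptidase to the channel, had a signal of 7153 in knockout and 2919 in wild-type TA, and of 1944 and 1768.5 in heart. It was 2.45-fold higher in knockout TA and 1.10-fold higher in knockout heart. Its other probe set gave 0.79 in TA as a log2 ratio, so the size of the difference depends on the probe set while its direction does not. Spcs3, an accessory subunit needed for cleavage, had signals of 3925 and 1729 in TA and 1505 and 1447 in heart, 2.27-fold higher in knockout TA and level in heart.

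The catalytic subunit of signal peptidase exists in alternative forms, Sec11a and Sec11c. Sec11c gave 3348 in knockout and 1460 in wild-type TA, 2.29-fold higher, but 1123 and 1398 in heart, 1.24-fold lower. Sec11a gave 4522 and 3063 in TA, 1.48-fold higher, and 3630 and 3618 in heart. On these probe sets the paralogs lay on the same side in TA, with log2 ratios of 1.20 and 0.56, and Sec11c had the larger difference in both tissues. The remaining subunit gene, Spcs1, had log2 ratios of 0.11 in TA and -0.12 in heart, so the excess did not extend evenly over the complex. With the median over probe sets the median of this step in TA was 0.56 in place of 1.18, below the calnexin cycle at 0.69 and TRAP at 0.66, and Sec11c then stood at 0.51.

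The TRAP complex, which sits beside the channel and helps some signal sequences to engage it, lay higher in TA as a whole. All 4 of its genes were above 0, from 0.35 to 0.90, with a median of 0.65, and Ssr2 and Ssr3 passed 1.5-fold. Ssr2 (TRAP beta) gave 2905 and 1561 in knockout and wild-type TA, 1.86-fold higher, and 1375 and 1532 in heart, 1.11-fold lower. Ssr3 (TRAP gamma) gave 16437 and 9480 in TA, 1.73-fold higher, and 6826 and 7722 in heart, 1.13-fold lower. For both genes the knockout TA pool had the highest of the 4 signals.

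The other TRAP genes were less clear. Ssr4 (TRAP delta) had a ratio of 0.50 in TA, and its 3 probe sets lay between 0.30 and 0.62. Ssr1 (TRAP alpha) had 0.35 on its brightest probe set, while its others gave 0.82, 1.29 and -0.67, the last on a dim probe set with signals of 59.8 and 161.2. In heart Ssr1 stood at -0.37, the lowest of the complex, and the median of the 4 genes was -0.17.

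Within the Sec61 channel and its partners all 5 measured genes were above 0 in TA, with a median of 0.31, and only Sec63 passed 1.5-fold. Sec63, a membrane J-domain protein that brings the chaperone BiP to the channel, gave 1626 in knockout and 769.5 in wild-type TA and 934 and 803 in heart. It was 2.11-fold higher in knockout TA and 1.16-fold higher in knockout heart. Its 5 probe sets pointed the same way in TA but spread from 0.11 to 1.08. Its partner Sec62, which serves proteins that enter after synthesis, had log2 ratios of only 0.07 and 0.10 on its brightest probe set. In TA the other probe sets of Sec62 ranged from -0.61 to 0.06, so its direction there depends on the probe set.

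Sec61a1, the pore-forming subunit, gave 2906.5 and 2121 in TA, 1.37-fold higher, and 1611 and 1887 in heart, 1.17-fold lower. Its 6 probe sets agreed in direction in TA but spread from 0.01 to 1.03. Sec61b, a small channel subunit, had 0.27 in TA, and Tram1, which contacts nascent chains beside the pore, had 0.31. In heart, Sec61a1, Sec61b and Tram1 lay at -0.23, -0.14 and -0.15. There the probe sets of Sec61a1 spread from -0.23 to 0.32, and a dimmer probe set of Tram1 gave 0.13. The heart direction of these 2 genes thus depends on the probe set.

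The lectin chaperones and the enzyme that returns proteins to them were the high genes of the calnexin cycle in knockout TA. Calr, which encodes the lumenal lectin and calcium buffer calreticulin, gave 15302 in knockout and 6428 in wild-type TA, 2.38-fold higher, and 5178 and 5523 in heart. Its other probe sets gave 1.78 and 1.81 as log2 ratios in TA, larger than the 1.25 of the brightest one. Canx, which encodes the membrane-bound lectin calnexin, gave 12361.5 and 6792 in TA, 1.82-fold higher, and 10091 and 10022.5 in heart, a log2 ratio of 0.01. The other probe sets of Canx gave 1.23 and 0.38 in TA, so its size depends on the probe set. Uggt1, the folding sensor that adds a glucose back to unfolded glycoproteins, gave 1214 and 532 in TA, 2.28-fold higher, and 371 and 385 in heart. For all 3 genes the signals of both heart pools lay close together on these probe sets. Another probe set of Uggt1 gave log2 ratios of 1.30 in TA and 0.29 in heart.

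The trimming enzymes differed less from wild type. Mogs, glucosidase I, which removes the outermost glucose, had a log2 ratio of 0.52 in TA and 0.24 in heart. The subunits of glucosidase II, Ganab (catalytic) and Prkcsh (regulatory), had -0.03 and 0.20 in TA and -0.02 and -0.09 in heart. The median of the 6 genes was 0.69 in TA and -0.04 in heart.

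Calr, Canx and Alg12, a mannosyltransferase gene of glycan assembly, are shown by sequence because their promoters were the 3 among the members that held the ER stress response element (ERSE). That element is CCAAT and CCACG with any 9 bases between them, bound by NF-Y and by factors of the unfolded protein response. RefSeq promoter windows (GRCm38.p6, 250 bases before to 50 after the annotated start) were found for 35 members and searched on both strands. The stretches below are all upstream of the start and on the minus strand of the genome, printed along the strand of the gene, with the ERSE ends in capitals. They lie at chr8:84847034-84847133 for Calr, chr15:88819479-88819568 for Alg12 and chr11:50325759-50325858 for Canx. In Calr the element runs opposite to the gene, from 162 to 144 bases before the start. In Alg12 it runs with the gene from 220 to 202 bases before, and in Canx from 145 to 127.
Calr: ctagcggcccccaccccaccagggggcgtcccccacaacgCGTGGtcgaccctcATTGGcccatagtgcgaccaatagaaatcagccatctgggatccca
Alg12: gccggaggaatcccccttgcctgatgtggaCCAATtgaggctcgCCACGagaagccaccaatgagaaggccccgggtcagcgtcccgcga
Canx: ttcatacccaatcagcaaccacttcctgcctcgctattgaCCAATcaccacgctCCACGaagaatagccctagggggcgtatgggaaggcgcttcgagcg

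The ERSE was present in 0.137% of the 27025 genes of the promoter table and in 3 of the 35 members found there. All 3 were among the 9 members in the table that were at least 1.5-fold higher in knockout TA, and 0 of the 24 other measured members in the table held it. The shorter motif CCACG, which is part of the ERSE, was present in 19 of 35 members and in 35.5% of genes. It was found in 7 of the 9 high members and in 12 of the 24 others. The letters GACGTG, the core bound by XBP1, were in Dad1, Dpm2, Mogs, Sec63 and Ssr1, 5 of 35 members against 7.15% of genes, and of these only Sec63 passed 1.5-fold. ERSE-II (ATTGG, any base, CCACG; 0.0444% of genes), the longer UPR element TGACGTGG, which contains GACGTG (0.714%), and the ATF4-type element TGATGCAA (1.03%) were in 0 of the 35 windows. A match is a description of letters and not of binding. The motifs, like the members, were chosen with earlier results of these data known, so these counts are descriptions. The members without a window are Alg2, Alg11, Dpagt1, Gmppb, Sec11c, Sec61a1, Spcs3, Ssr2, Tram1 and Tusc3.

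Oligosaccharyltransferase genes lay modestly higher in TA, with 5 of 7 above 0, a median of 0.34 and 1 past 1.5-fold. Ddost, a structural subunit, gave 4180 in knockout and 2596 in wild-type TA, 1.61-fold higher, and 2394 and 2809 in heart, 1.17-fold lower. Rpn1, which binds substrates for the complex, gave 7026 and 4731 in TA, 1.49-fold higher, and 4176 and 4761 in heart, 1.14-fold lower. Rpn1 lay just under the threshold, and its 5 measured probe sets ranged from 0.53 to 0.68 in TA.

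Of the alternative catalytic subunits, Stt3b, which also glycosylates sites missed during entry, had a log2 ratio of 0.44 in TA. Stt3a, which acts at the channel, had -0.03 on its brightest probe set and 0.37 and 0.46 on its others, so its direction depends on the probe set. Dad1 and Rpn2, both structural, had 0.34 and 0.11. Tusc3, an oxidoreductase subunit of the Stt3b form, had -0.16 in TA and 0.13 in heart, the only gene of the complex above 0 there. The median of the complex in heart was -0.19.

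Assembly of the dolichol-linked glycan was uneven from enzyme to enzyme. On the cytosolic face, Dpagt1, which adds the first sugar to dolichol and is the target of tunicamycin, gave 973 in knockout and 563 in wild-type TA, 1.73-fold higher, and 872 and 783 in heart. Alg2, a mannosyltransferase of this face, gave 388 and 289 in TA, 1.34-fold higher, and 192 and 169 in heart. Alg1, which adds the first mannose, had 0.33 in TA, whereas Alg14 and Alg11, which act before and after it, had -0.15 and -0.11. Another probe set of Alg14 gave -0.55 in TA. The median of the 5 genes was 0.33 in TA and 0.16 in heart.

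On the lumenal face Alg12 stood apart. It gave 337 in knockout and 144 in wild-type TA, 2.34-fold higher, and 218 and 189 in heart. Its other probe sets gave log2 ratios of 1.11 and 0.49 in TA, and of -0.53 and 0.22 in heart. Its direction in heart thus depends on the probe set. The other lumenal genes lay near or below wild type in TA. Alg8, a glucosyltransferase, gave 374 and 540 in TA, 1.44-fold lower, and 377 and 508 in heart, 1.35-fold lower. Alg3 and Alg9, mannosyltransferases that act beside Alg12, had -0.25 and -0.20 in TA, and the glucosyltransferase gene Alg6 had 0.11. The median of this step was -0.20 in TA, the only 1 of the 8 below 0, and -0.19 in heart.

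Among the genes that supply activated sugars, Gmppa was the only 1 of 6 measured past 1.5-fold in TA. Gmppa, a regulator of GDP-mannose synthesis, gave 1122 in knockout and 659 in wild-type TA, 1.70-fold higher, and 1032 and 870.0 in heart, 1.19-fold higher. Its catalytic partner Gmppb gave 301 and 238 in TA, 1.27-fold higher, but 169.5 and 265 in heart, 1.56-fold lower. Dpm1, the catalytic subunit of dolichol-phosphate-mannose synthase, gave 1093 and 1508 in TA, 1.38-fold lower, and 823 and 1263.5 in heart, 1.53-fold lower.

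Gmppb and Dpm1 were the members past 1.5-fold in heart, both lower in the knockout. Gmppb has 1 probe set and is dim. A second, dim probe set of Dpm1 gave 0.15 in heart, the opposite direction. Pmm2, a phosphomannomutase, and Alg5, which makes dolichol-phosphate-glucose, had 0.20 and 0.26 in TA and -0.31 and -0.30 in heart. The probe sets of Pmm2 disagreed, and a dimmer one gave -0.78 in TA and 0.40 in heart, the opposite directions. Dpm2, a regulatory subunit of the synthase, had 0.27 and 0.09, and the step as a whole had medians of 0.27 in TA and -0.30 in heart. The heart median was the lowest of the 8 steps on the brightest probe sets, but with the median over probe sets it was -0.14 and oligosaccharyltransferase was lowest at -0.20.

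**Figure D3:**
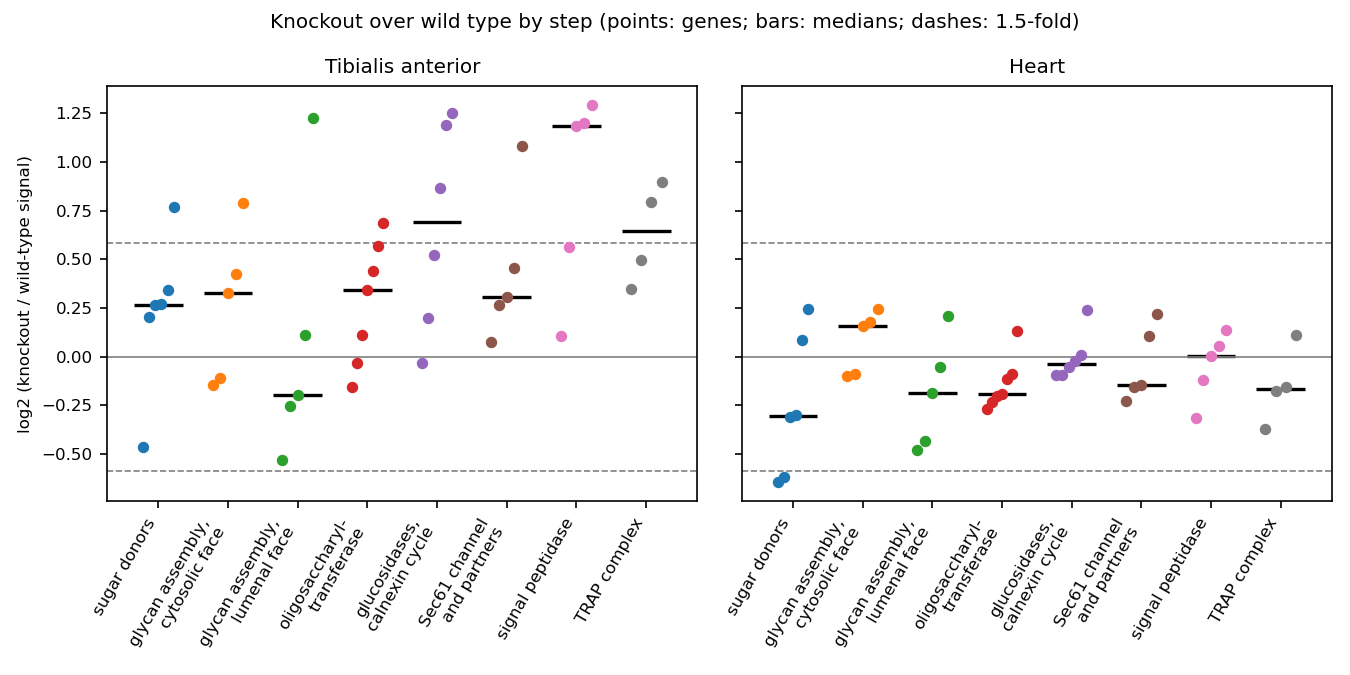
Log2 ratio of knockout over wild-type signal for each measured member (points) by step in TA (left) and heart (right), with the median of each step as a black bar and dashed lines at 1.5-fold, 1 array a group. On these brightest probe sets signal peptidase has the highest TA median (1.18, but 0.56 and not the highest with the median over probe sets) and the lumenal face of glycan assembly the lowest (-0.20), and in heart the points stay between -0.64 and 0.25.

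Set together, the 16 measured genes of sugar supply and glycan assembly had a TA median of 0.23 with 3 past 1.5-fold, and the 27 genes from oligosaccharyltransferase to TRAP 0.50 with 10. In heart the medians were -0.10 and -0.09. These are descriptions of 1 pair of arrays for each tissue, and the difference between the groups of steps was not tested.

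The knockout comparisons of TA and heart share no array and can be set side by side. The TA ratio exceeded the heart ratio in 36 of the 43 members, and the median of the TA minus the heart log2 ratio was 0.46. In 16 members the ratios lay at least 1.5-fold apart with TA above, and in 0 with TA below, against 6.44% and 5.10% of the 10802 genes measured in both tissues. The largest gap was that of Sec11c at 1.51, followed by Calr at 1.34 and Uggt1 at 1.24, on the brightest probe sets. With the median over probe sets Calr led at 1.93 and Sec11c had 0.82. In 21 members the ratio was above 0 in TA and below 0 in heart, and in 2, Alg11 and Tusc3, the reverse. No share over all genes stands beside these counts of direction or the 36 of 43. The median heart ratio of the members, -0.09, was smaller than the spread between probe sets in heart, 0.17. Many of the heart directions are therefore uncertain. Of the 13 members 1.5-fold higher in TA, 7 lay above 0 in heart and 6 below, none past 1.5-fold. Hspa5, which encodes the ER chaperone BiP, was 3.85-fold higher in knockout TA and 1.07-fold higher in knockout heart on the same arrays.

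**Figure D4:**
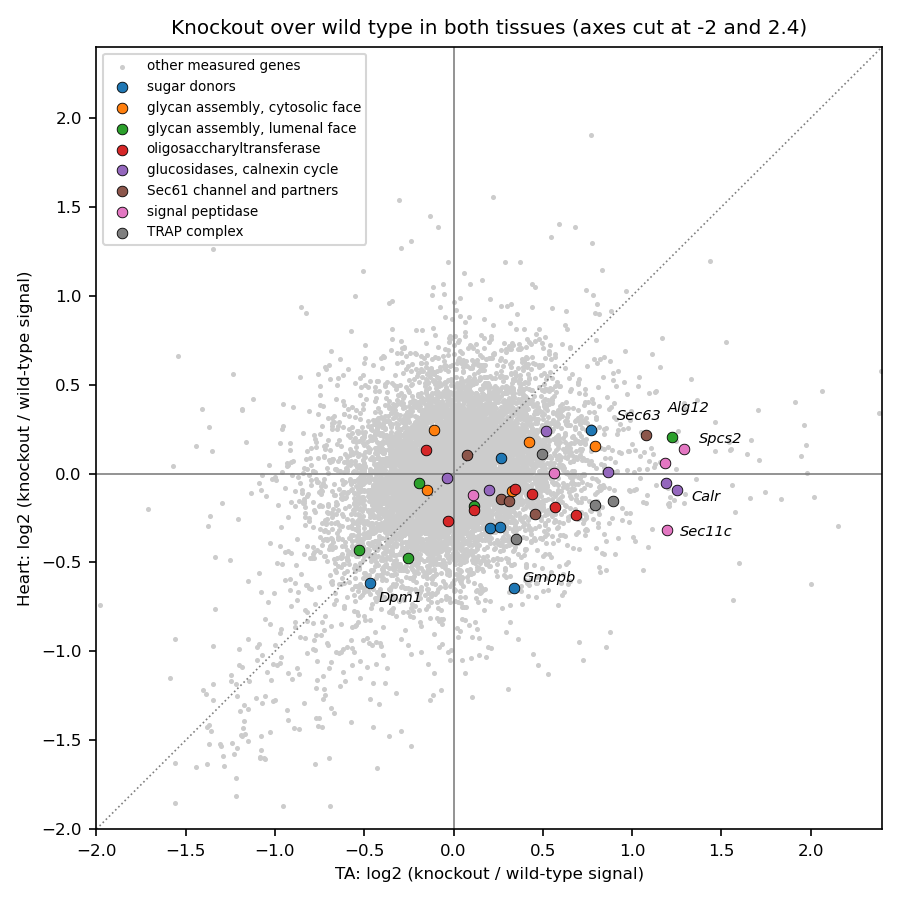
Log2 ratio of knockout over wild-type signal in TA (horizontal) against heart (vertical) for the 43 measured members, coloured by step, and other genes measured in both tissues (grey), with axes cut at -2 and 2.4 and equality dotted. Most members lie below the dotted line, 36 of 43, and Calr (1.25 in TA, -0.09 in heart) and Sec11c (1.20 and -0.32) are among those farthest to the right.

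Other genes of the same pathway, listed by role with earlier results of these data known, lay on both sides of this pattern. The share of all genes at least 1.5-fold higher was 4.20% in knockout TA and 2.67% in knockout heart. Of the further oligosaccharyltransferase subunits, 3 of 5 were at least 1.5-fold higher in knockout TA (median 0.71). Ostc, which ties the Stt3a form to the channel, was 2.01-fold higher, Magt1, the oxidoreductase counterpart of Tusc3, 1.77-fold and Krtcap2 1.64-fold. Magt1 and Tusc3 thus differed, at 0.82 and -0.16. In the supply of UDP-GlcNAc and mannose phosphate, 3 of 7 were higher (median 0.32), with Gfpt1, the entry enzyme of the hexosamine pathway, 1.78-fold, Uap1 1.64-fold and Pgm3 1.52-fold higher. Of the 8 measured genes of the signal recognition particle and its receptor, 2 were higher (median 0.38), Srp54b 2.23-fold, on a probe set close to the floor in wild type, and Srprb 1.57-fold. Both were higher in heart too, Srp54b 1.52-fold and Srprb 1.63-fold. The channel relatives listed with them, Sec61a2 and Tram2, had -0.01 and -0.11 in TA.

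Several neighbouring routes had medians near 0 in knockout TA. Over all genes 4.20% were at least 1.5-fold higher there and 4.44% lower, so counts of 0 in lists of this size lie near the share of all genes. The list of dolichol supply and use, which also holds the glycan assembly genes Alg13 and Alg10b, had 0 of 8 past 1.5-fold either way (median 0.03), with Dolpp1 at 0.49, Mpdu1 at -0.38 and Nus1 at 0.23. Golgi processing of N-glycans had 0 of 16 (median -0.10), with Mgat2 at 0.53, and the other routes of membrane insertion, such as the EMC complex, 0 of 12 (median -0.09), with Emc8 at -0.27. Among other genes of glycoprotein folding 1 of 6 was higher (median 0.05), Pdia3, a disulfide isomerase that works with the lectins, at 1.76-fold in TA and 1.44-fold lower in heart. In heart, Engase, which cleaves free glycans in the cytosol, was 1.62-fold higher and Slc35a2, the Golgi transporter of UDP-galactose, 1.57-fold lower, and the medians of these lists lay between -0.16 and -0.03.

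Wild-type TA and heart differed little in these genes. In TA 4 of 43 members were at least 1.5-fold above heart and 1 was below, against 14.5% and 18.0% of the 11872 genes measured. The median log2 ratio of TA over heart was 0.06, and that of all genes -0.07. Since both arrays are tissue extracts, fewer cells of a type and less RNA per cell cannot be told apart.

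Sec62 was the member most in excess in wild-type TA, with 5991.5 against 3045 in heart, 1.97-fold, and its 5 measured probe sets all pointed the same way. Alg2 was 1.71-fold higher in TA, Spcs2 1.65-fold and Sec61b 1.64-fold, with 5072 against 3099 for Sec61b, and Uggt1 was 1.38-fold higher. For Spcs2 the second probe set gave -0.11, so its tissue difference rests on 1 probe set. On the other side, Tusc3 was 1.72-fold lower in TA than in heart, at 1227 against 2110. Canx was 1.48-fold lower, Dpagt1 1.39-fold, Dad1 1.37-fold and Prkcsh 1.34-fold. In the knockout pools Sec62 had signals of 6311 in TA and 3273 in heart, and Tusc3 1101 and 2313.5, again on opposite sides.

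**Figure D5:**
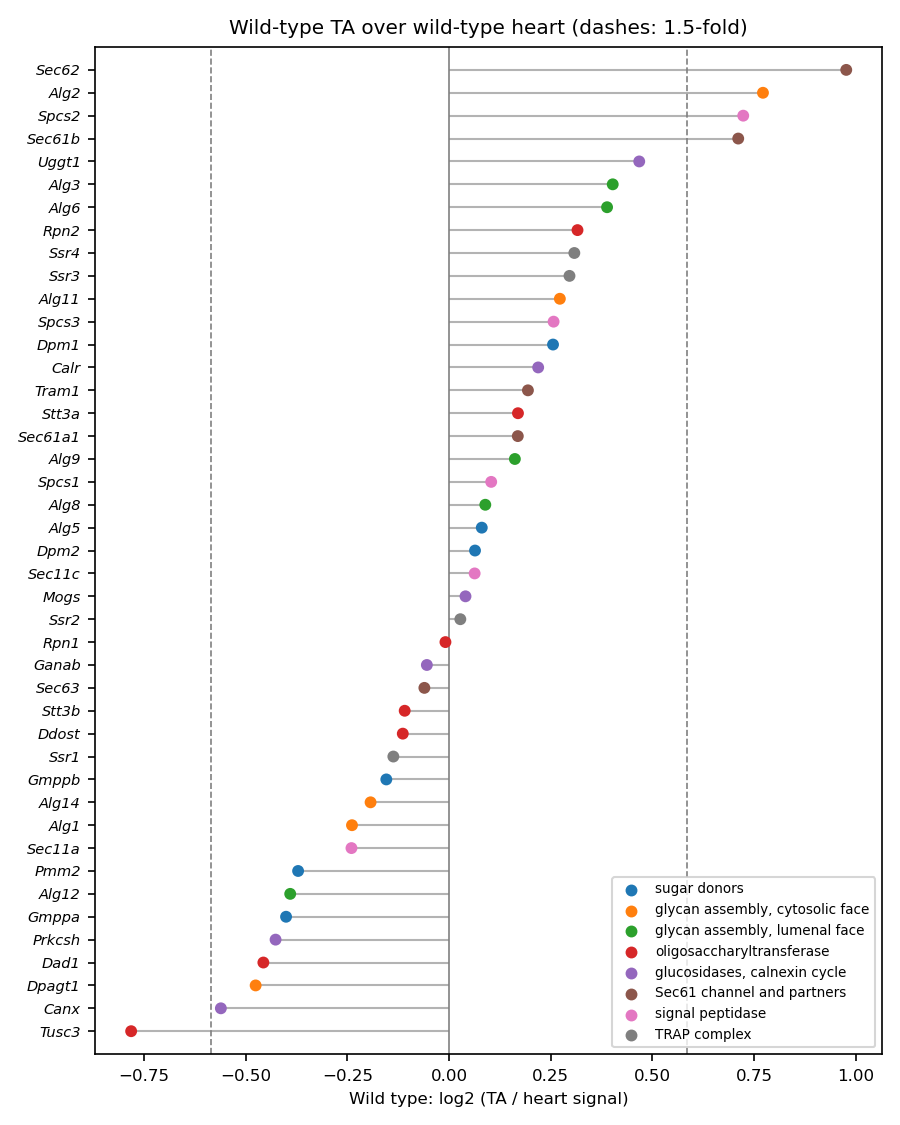
Log2 ratio of wild-type TA over wild-type heart signal for the 43 measured members, sorted and coloured by step, 1 array a tissue, with dashed lines at 1.5-fold. Sec62, Alg2, Spcs2 and Sec61b lie beyond the dashed line on the TA side and Tusc3 on the heart side.

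Markers of other cells in these tissues were measured on the same arrays. In TA all 7 fibroblast markers were detected, 6 of them below 0 (median -0.12), with a summed signal of 140740 in knockout and 155605 in wild type. The 5 endothelial markers had a median of -0.05, with sums of 7856 and 8162. Leukocyte markers summed to 9118 and 7995, where the neutrophil gene S100a8 was 5.26-fold higher and the other 4 lay between 0.00 and 0.28. Of the plasma cell markers, Jchain was below the floor on all 4 arrays, and the sum was 953 in knockout and 1148 in wild type, most of it from Sdc1 (595.5 and 775). Mzb1, of the same list, went the other way, at 152 and 107, 1.42-fold higher. The 5 cell cycle markers were lower in both knockout tissues, with medians of -1.37 in TA and -1.52 in heart. Skeletal muscle markers summed to 291591 and 315874 in knockout and wild-type TA. The part of these shifts in the members' ratios was not tested.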

How the data were processed

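Labelled RNA of 4 pools was hybridised to Affymetrix mouse arrays. The deposited table holds 1 linear signal intensity for each probe set and array. The submitters' processing notes name MAS5 as the authors' tool, without version, scaling target or detection calls. The platform's annotation gave 1 gene symbol for 34945 of 45037 probe sets, which were used, several for 932 and none for 9160. The members had 102 probe sets, and 29 members had more than 1. The probe set with the highest mean signal was taken for each gene. The log2 ratios were computed from the deposited signals, after raising signals below the floor, 101.3, to it. A gene was called at 1.5-fold. No p-value was computed, because each group is 1 array, and the number of arrays limits the precision. All 44 members matched a RefSeq gene by identifier. The members, lists and motifs were chosen with earlier results of these data known, so counts are descriptions. Values are given for members past 1.5-fold in a knockout comparison, the 2 largest TA ratios of each step, the 5 members most apart each way between wild-type tissues, and up to 3 genes of each other list; further genes named beside them were chosen after their values were seen. Code for the ratios was checked on simulated arrays with planted folds, which says nothing about the measured ratios. Alternatives were other floors, other rules for probe sets, centring and quantile normalization. Python 3.11.15, pandas 2.3.3 and numpy 2.4.6 were used.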

Additional observations from a re-analysis of the deposited data

Results flagged for a closer look

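In 7 of the 43 measured members a difference of at least 1.5-fold in 1 tissue went with the opposite direction in the other. With 1 array a group this difference between tissues was not tested. No share over all genes stands beside this count. The heart ratios of Uggt1 (-0.05), Calr (-0.09) and Ssr2 (-0.16) were smaller than the spread between probe sets in heart, 0.17. Those of Ssr3 (-0.18), Ddost (-0.23) and Sec11c (-0.32) were larger. Of the 13 members 1.5-fold higher in TA, 7 lay above 0 in heart and 6 below, so the heart directions were close to evenly divided. The TA minus the heart log2 ratio was 1.51 for Sec11c, 1.34 for Calr, 1.24 for Uggt1, 1.05 for Ssr2, 0.97 for Ssr3 and 0.92 for Ddost, all higher in knockout TA and lower in knockout heart by under 1.5-fold. With the median over probe sets the gap of Sec11c was 0.82, and Uggt1 stood at 0.12 in heart, above 0. For Gmppb it was 0.98, and there the larger difference was the deficit in heart.

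A probe set annotated to several symbols, Sec61g among them, was outside the comparisons. Its log2 ratio of knockout over wild type in TA was 0.70, with signals of 8690 and 5341, and in heart it was -0.36. The signal cannot be assigned to 1 gene.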

How the results depend on the processing

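The counts and medians of the members in TA kept their direction under all 7 alternatives, with 12 to 15 members at least 1.5-fold higher, 0 lower and a median from 0.33 to 0.40. The share of all genes 1.5-fold higher in TA rose from 4.2% to 8.03% with a floor at the 25th percentile and 13.45% with no floor. Against these shares the excess of the members, 13 of 44 under both settings, was smaller. The share of all genes lower rose as well, from 4.44% to 8.66% and 14.01%. The heart count of 2 lower members became 1 for a floor at the 75th percentile (without Gmppb) and 1 with the median over probe sets (without Dpm1). In wild type the count of members lower in TA than in heart was 1. It was 2 without probe sets that may match several transcripts and 2 with quantile normalization. The first added Ssr4, at -0.60 against 0.31 on its brightest probe set, and the second Canx. The floor at the 75th percentile, which drops dim genes, moved the TA median of the calnexin cycle to 0.86. Taking the median over probe sets moved that of signal peptidase to 0.56, no longer the highest of the 8 steps. Of the 13 members called in TA, Alg12 was lost under the higher floor, which exceeds its signals. With the median over probe sets Sec11c was lost and Rpn1 gained. Without probe sets that may match several transcripts Rpn1 and Ssr4 were gained. Of single members, Calr stood at 1.78 and Canx at 1.23 in TA under other probe set rules, while the dimmest probe set of Canx gave 0.38. No called value changed sign. No paired analysis was possible because each group has 1 array and the labels carry no replicate numbers. Dim genes near the floor, such as Alg12 and Gmppb, have the least certain ratios.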

Other observations

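Dolichol-phosphate-mannose, made by Dpm1, Dpm2 and Dpm3, is also used to build GPI anchors and to start O-mannosyl glycans. Of 12 measured genes of these pathways, 0 were at least 1.5-fold higher or lower in knockout TA and 0 in knockout heart, with medians of 0.00 in both. Over all genes 4.20% were higher and 4.44% lower in TA, and 2.67% and 4.19% in heart. Counts of 0 in a list of this size lie near those shares. The largest TA ratios were those of Gpaa1 (-0.50), Piga (0.50) and Pigo (-0.48).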
